A study of Mus musculus with 6 samples.

Results

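The 36 genes described here encode aminoacyl-tRNA synthetases, the enzymes that join each amino acid to its transfer RNA (tRNA). They comprise 20 genes of cytosolic enzymes, whose symbols carry no suffix, and 16 genes of mitochondrial enzymes, whose symbols end in 2. Members were found by gene symbol among 48820 listed genes, from a list drawn up with earlier results of these data known, and all 36 were present as protein-coding genes. All 36 also passed the filter on low counts, so none was lost before testing. Mars1 is listed as Mars in GENCODE release M21. Expression was measured by RNA-seq in spheroids of 4T1, a line derived from a mouse mammary carcinoma and used as a model of triple-negative breast cancer, maintained in RPMI medium with fetal bovine serum. The groups were 3 libraries of wild-type cells (WT 1 to 3) and 3 libraries labelled LATS1/2 double knockout (dKO 1 to 3). LATS1 and LATS2 are kinases of the Hippo pathway. The labels do not say how the knockout was made, whether the line is 1 clone, or whether the 3 biological replicates came from separate cultures. The p-values therefore set a group difference against the spread between these libraries, which may be technical.

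Each synthetase recognises 1 amino acid and charges the matching tRNAs, and the charged tRNAs supply the ribosome. Mitochondria have their own ribosomes and mostly their own synthetases, which are encoded in the nucleus and imported. Several cytosolic enzymes sit together in the multi-synthetase complex, held by scaffold proteins, and the others are free. Gars and Kars each encode both the cytosolic and the mitochondrial form of the enzyme, and Eprs encodes a fused protein that charges both glutamate and proline tRNAs. Uncharged tRNA activates the kinase GCN2, encoded by Eif2ak4, which raises translation of the transcription factor ATF4. ATF4 is known to induce many cytosolic synthetase genes together with genes of amino acid synthesis and transport.

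The promoters are shown first. Among the members that could be searched, those whose promoters hold the letters of the ATF4 response element were cytosolic. The motif searched was TGATGNAA, the core of the C/EBP-ATF response element, on both strands (reverse complement TTNCATCA), from 250 bases before to 50 after the gene start. Promoter sequences were those of RefSeq on GRCm38.p6, which had entries for 13 of the 20 cytosolic and 14 of the 16 mitochondrial genes. Cars, Hars, Lars, Nars, Rars, Vars, Wars, Hars2 and Pars2 were not among them. The motif was present in 5 of 13 cytosolic promoters (38.5%) and 0 of 14 mitochondrial ones, against 1219 of 27025 genes in the whole promoter table (4.51%). A count of 0 in 14 lies near that share, so it does not set the mitochondrial promoters apart. For each of these genes the match nearest the gene start is shown with 11 bases on either side, 5′ to 3′ on the strand of the gene, with the match in capitals.
Aars, chr8:111033840-111033869, plus strand: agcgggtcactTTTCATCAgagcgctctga
Gars, chr6:55037960-55037989, plus strand: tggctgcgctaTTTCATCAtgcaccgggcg
Iars, chr13:49682126-49682155, plus strand: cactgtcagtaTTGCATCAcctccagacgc
Tars, chr15:11399655-11399684, minus strand: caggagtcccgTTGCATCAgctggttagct
Yars, chr4:129189895-129189924, plus strand: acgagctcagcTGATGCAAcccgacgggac
The matches shown for Gars and Tars began 30 and 15 bases before the gene start, and those for Iars, Yars and Aars began at bases 8, 4 and 10 after it. The gene start here is that of the RefSeq promoter entry. It can differ from the GENCODE gene coordinates given below, which begin at 111033144 for Aars and 129189760 for Yars. The TEAD core GGAATG, counted in the same way, was in 2 of 13 cytosolic promoters (15.4%), 4 of 14 mitochondrial ones (28.6%) and 16.6% of all genes. A match describes these letters only and was not tested as a binding site.

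Total counts ran from 38194478 to 49630116 per library, and each synthetase had at least 165 counts in every library. Along the first principal component (88.7% of the variance) the groups separated, while along the second (4.82%) WT 2 and dKO 3 lay farthest from the other libraries of their groups. Levels are given as CPM, the counts scaled to a common library size with TMM factors, and group values as mean ± SD over 3 libraries. Lats1 was lower in labelled dKO, at 153 ± 6.36 CPM over the WT libraries and 50.9 ± 2.55 CPM over the labelled dKO libraries, while Lats2 was higher, at 27.2 ± 4.01 CPM over the WT libraries and 77.9 ± 12.5 CPM over the labelled dKO libraries, so the knockout is not checked by the level of Lats2 and all directions are between libraries as labelled. Epithelial markers were present in every library; the 9 markers summed to 6289.7 to 6413 CPM in WT and 5065 to 5800.5 CPM in labelled dKO. Of these markers 4 were called lower in labelled dKO, among them Epcam (-1.46 on the log2 scale), and 3 higher, among them Krt19 (1.63). Of the leukocyte markers, Ptprc was at most 0.418 CPM and Cd3e at 0, but the summed level of the 9 leukocyte markers was 3.41 to 16.3 CPM in WT and 77.1 to 209 CPM in labelled dKO, mostly from Csf1r, and 1 of the 9 was at 0 in all libraries. Only 3 of the 9 leukocyte markers passed the filter on low counts, and these were called higher, as were 28.6% of all tested genes. The rest were not tested, so these 3 do not stand for the list. Csf1r rose by 4.58 on the log2 scale, and Cd68 by 2.855, from 2.15 ± 0.207 to 15.6 ± 1.80 CPM. The third was Itgam, at most 0.465 CPM, with 0 counts in every WT library and 13, 13 and 20 in dKO 1, dKO 2 and dKO 3. It passed the filter only through the labelled dKO libraries, so it could only be called higher. Fibroblast markers (8 genes) summed to 37.2 to 59.1 CPM in WT and 4.47 to 7.49 CPM in labelled dKO, in WT mostly from Pdgfra, with Lum and Thy1 at 0. Of the 8 genes, 3 passed the filter and were tested. Pdgfra and Col1a1 were called lower. Col1a2, at most 0.934 CPM, was called higher, with 0, 4 and 0 counts in WT and 28, 38 and 21 in labelled dKO. It passed the filter only through the labelled dKO libraries, which fixed the direction of its call. Endothelial markers (6 genes) summed to at most 1.46 CPM, with Kdr and Emcn at 0. The part of these marker genes in the results was not tested.

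Cytosolic synthetase mRNAs were higher in the labelled dKO libraries. Of the 20 cytosolic genes, 17 rose, 0 fell and 3 did not pass, by edgeR's quasi-likelihood test at an adjusted p under 0.05. Over all 15807 genes tested, 57.3% were called, 28.6% higher and 28.7% lower. In the lower direction 0 cytosolic genes also had an unadjusted p under 0.05, and DESeq2 also called 17 higher and 0 lower. Their median log2 fold change (labelled dKO minus WT) was 1.09, with a range of -0.05 to 2.04, against -0.01 over all tested genes. Called rises of at least 2-fold were fitted for 11 of the 20, against 12.1% of all tested genes. For 19 of the 20, the library ranges of the groups did not overlap and labelled dKO was higher, which held for 32.7% of all tested genes (65.6% were apart in either direction). In bulk libraries like these, more RNA per cell and more cells of a type cannot be told apart.

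**Figure D1:**
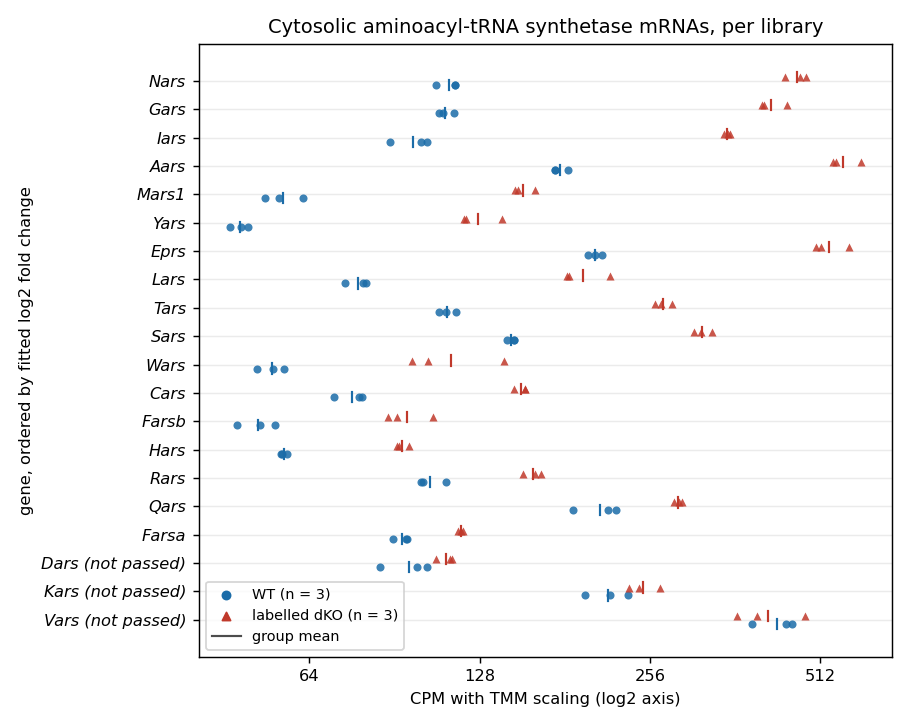
Level of each of the 20 cytosolic synthetase mRNAs in every library, in CPM on a log2 axis, with genes ordered by fitted log2 fold change. Circles are WT libraries, triangles are libraries labelled dKO and short bars are group means; the triangles lie to the right of the circles in every gene but Vars, and Dars, Kars and Vars did not pass the test.

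The largest fitted rises of the cytosolic set were those of Nars and Gars, whose enzymes work outside the multi-synthetase complex. Nars, which charges asparagine tRNA (ENSMUSG00000024587, chromosome 18, 64499647 to 64516652, GRCm38), stood at 116, 107 and 116 CPM in WT 1, WT 2 and WT 3 and 471, 483 and 444 CPM in dKO 1, dKO 2 and dKO 3. Every labelled dKO library was above every WT library, and the log2 fold change was 2.04 ± 0.07 (SE; adjusted p = 8.78e-08, edgeR). Gars, the glycine enzyme of both compartments (ENSMUSG00000029777, chromosome 6, 55038007 to 55079500), stood at 115, 108 and 110.3 CPM in WT 1, WT 2 and WT 3 and 403, 407 and 446 CPM in dKO 1, dKO 2 and dKO 3. The groups did not overlap, and Gars changed by 1.91 ± 0.07 (SE; adjusted p = 1.31e-07, edgeR). For Aars, the alanine enzyme (ENSMUSG00000031960, chromosome 8, 111033144 to 111057664), the levels were 183, 174 and 174 CPM in WT 1, WT 2 and WT 3 and 539, 545 and 604 CPM in dKO 1, dKO 2 and dKO 3. The lowest labelled dKO library was still well above the highest WT library, with dKO 3 the highest of all, and the log2 fold change was 1.67 ± 0.07 (SE; adjusted p = 2.85e-07, edgeR). Aars shares exon sequence with Exosc6 on the same strand, so some reads could belong to either gene. Tars, the threonine enzyme (ENSMUSG00000022241, chromosome 15, 11382301 to 11399665), stood at 109, 116 and 112 CPM in WT 1, WT 2 and WT 3 and 261, 267 and 280.2 CPM in dKO 1, dKO 2 and dKO 3. Its groups were again apart, by 1.27 ± 0.07 (SE; adjusted p = 7.93e-07, edgeR). Sars, the serine enzyme (ENSMUSG00000068739, chromosome 3, 108424865 to 108445209), which also charges the selenocysteine tRNA with serine, stood at 143, 147 and 147 CPM in WT 1, WT 2 and WT 3 and 306, 315 and 329 CPM in dKO 1, dKO 2 and dKO 3. The WT libraries lay within a few CPM of each other and all below the labelled dKO libraries, a change of 1.12 ± 0.06 (SE; adjusted p = 1.27e-06, edgeR).

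The enzymes for the aromatic amino acids tryptophan and tyrosine also rose. Wars, for tryptophan (ENSMUSG00000021266, chromosome 12, 108860030 to 108894174), stood at 55.3, 57.7 and 51.8 CPM in WT 1, WT 2 and WT 3 and 104, 97.1 and 141 CPM in dKO 1, dKO 2 and dKO 3. Library dKO 3 was well above dKO 1 and dKO 2, yet all 3 exceeded the WT libraries, and Wars rose by 1.05 ± 0.14 (SE; adjusted p = 0.00019, edgeR). Yars, for tyrosine (ENSMUSG00000028811, chromosome 4, 129189760 to 129219607), stood at 46.4, 48.4 and 49.8 CPM in WT 1, WT 2 and WT 3 and 120.1, 121 and 140.01 CPM in dKO 1, dKO 2 and dKO 3. The groups did not overlap, and Yars rose by 1.40 ± 0.09 (SE; adjusted p = 1.98e-06, edgeR). Cars, for cysteine, rose from 76.1 ± 4.68 to 152 ± 3.85 CPM (SD, n = 3), and Hars, for histidine, from 57.7 ± 0.803 to 93.2 ± 2.49 CPM. The phenylalanine enzyme is built from alpha and beta subunits, encoded by Farsa and Farsb. The beta subunit gene rose more than the alpha subunit gene, Farsb by 0.87 ± 0.10 (SE; adjusted p = 7.2e-05, edgeR) and Farsa by 0.35 ± 0.07 (SE; adjusted p = 0.00176, edgeR); the difference between the subunits was not tested. Hars overlaps Hars2 on the opposite strand, Farsb overlaps Sgpp2, Yars overlaps C77080 and Cars overlaps Gm15580, so reads there cannot be told apart without strand. Of the 12 cytosolic genes outside the complex, 11 rose, against 28.6% of all tested genes, with a median log2 fold change of 1.09.

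Of the 8 enzyme genes of the multi-synthetase complex, 6 rose and 2 did not pass, where 28.6% of all tested genes were called higher. The median log2 fold change of the 8 was 0.96 and the range 0.20 to 1.84. Iars, the isoleucine enzyme (ENSMUSG00000037851, chromosome 13, 49682100 to 49734267), stood at 103, 88.8 and 101 CPM in WT 1, WT 2 and WT 3 and 345, 351 and 355 CPM in dKO 1, dKO 2 and dKO 3. The labelled dKO libraries lay close together and far above WT, a change of 1.84 ± 0.08 (SE; adjusted p = 2.41e-07, edgeR). Eprs, the fused enzyme for glutamate and proline (ENSMUSG00000026615, chromosome 1, 185363044 to 185428360), stood at 205, 199 and 210.2 CPM in WT 1, WT 2 and WT 3 and 504, 513 and 575 CPM in dKO 1, dKO 2 and dKO 3. All labelled dKO libraries were above all WT libraries, with dKO 3 the highest, and Eprs changed by 1.37 ± 0.07 (SE; adjusted p = 9.65e-07, edgeR). Mars1, the methionine enzyme (ENSMUSG00000040354, chromosome 10, 127296221 to 127311786), stood at 53.4, 56.6 and 62.4 CPM in WT 1, WT 2 and WT 3 and 161, 149.7 and 148 CPM in dKO 1, dKO 2 and dKO 3. Its groups did not overlap, and it changed by 1.41 ± 0.08 (SE; adjusted p = 1.59e-06, edgeR). Mars1 overlaps exons of the stress gene Ddit3, a known ATF4 target. Ddit3 was at 7.18, 12.9 and 7.07 CPM in the WT libraries and 26.7, 31.1 and 31.3 CPM in the labelled dKO libraries, below Mars1 in every library, and how the reads of their shared exons were assigned is not known.

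Among the remaining complex members, Lars, for leucine, rose from 78.2 ± 3.61 to 195 ± 19.7 CPM, and Rars, for arginine, from 105 ± 6.11 to 159 ± 5.87 CPM. Qars, for glutamine, rose less, from 209 ± 18.8 to 287 ± 4.76 CPM, and its log2 fold change was 0.46 ± 0.08 (SE; adjusted p = 0.000941, edgeR). Dars, the aspartate enzyme, did not pass: it was at 99.3, 85.5 and 103 CPM in WT 1, WT 2 and WT 3 and 107, 114 and 114 CPM in dKO 1, dKO 2 and dKO 3, with a log2 fold change of 0.22 ± 0.09 (SE; adjusted p = 0.058, edgeR). Its libraries did not overlap between groups, but the gap was small beside the spread within WT. Kars, the lysine enzyme of both compartments, was at 218, 197 and 234 CPM in WT 1, WT 2 and WT 3 and 245, 235 and 267 CPM in dKO 1, dKO 2 and dKO 3 and did not pass either, with a log2 fold change of 0.20 ± 0.08 (SE; adjusted p = 0.0679, edgeR). Here too the lowest labelled dKO library was just above the highest WT library. Both genes lay close to the threshold: without WT 3 the edgeR adjusted p was 0.0454 for Dars and 0.0429 for Kars, and the highest over the alternatives other than the 1.5-fold test was 0.145 and 0.162.

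Vars, the valine enzyme, was the cytosolic gene whose groups overlapped. It stood at 455, 388 and 445 CPM in WT 1, WT 2 and WT 3 and 396, 365 and 481 CPM in dKO 1, dKO 2 and dKO 3. Both the lowest and the highest of these 6 values were in labelled dKO, and the log2 fold change was -0.05 ± 0.11 (SE; adjusted p = 0.705, edgeR). Without WT 2 and dKO 3, the libraries that lay apart from their groups, Vars was called lower, by -0.24 (edgeR adjusted p = 0.00105); over the other alternatives its adjusted p was never under 0.05. By catalytic fold, 9 of the 10 class I enzymes and 8 of the 10 class II enzymes rose, against 28.6% of all tested genes. The class I and class II median log2 fold changes were 1.18 and 1.00.

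Per length, the order of the cytosolic mRNAs changed between groups. With CPM divided by the merged exon length of each gene in kilobases, WT levels ran from 8.11 CPM per kb for Yars to 76.6 CPM per kb for Vars, with a median of 20.2 CPM per kb. Kars (48.4 CPM per kb) and Gars (35.7 CPM per kb) followed Vars. In labelled dKO, Gars was the highest at 134 CPM per kb, then Nars at 107 and Vars at 73.8 CPM per kb, and Yars was again the lowest at 21.4 CPM per kb. Merged exons cover all annotated transcripts of a gene, so a gene with long exons that are seldom used has a lower value. Summed over the 20 genes, the level was 2535 ± 103 CPM in WT and 5182 ± 241 CPM in labelled dKO.

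The 5 cytosolic genes whose promoters hold TGATGNAA, printed above, all rose, by 1.27 to 1.91 on the log2 scale with a median of 1.67. With or without the motif, 17 of the 20 cytosolic genes rose, against 28.6% of all tested genes. The 8 cytosolic genes with a promoter entry and no match had a median of 0.67 and a range of 0.20 to 1.41, and 6 of these 8 rose. The 7 without an entry, Nars among them, ran from -0.05 to 2.04. The ranges with and without a match overlapped, through Mars1 (1.41) and Eprs (1.37) on 1 side and Tars (1.27) on the other, and these medians are a description with no test.

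Mitochondrial synthetase mRNAs had smaller fitted changes, in both directions. Of the 16 mitochondrial genes, 9 rose, 2 fell and 5 did not pass (edgeR adjusted p under 0.05). Their median log2 fold change was 0.36, with a range of -0.65 to 2.00. Over all tested genes 28.6% were called higher and 28.7% lower. Rises of at least 2-fold were called in 3 of the 16, against 12.1% of all tested genes, and 10 of the 16 had non-overlapping ranges with labelled dKO higher, against 32.7%. With 1 library left out, 7 to 9 mitochondrial genes were called higher and 0 to 2 lower, against 17 to 19 and 0 cytosolic genes. The mitochondrial genes had lower levels, with a median coefficient of variation over libraries of 8.32% against 4.58% for the cytosolic genes.

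**Figure D2:**
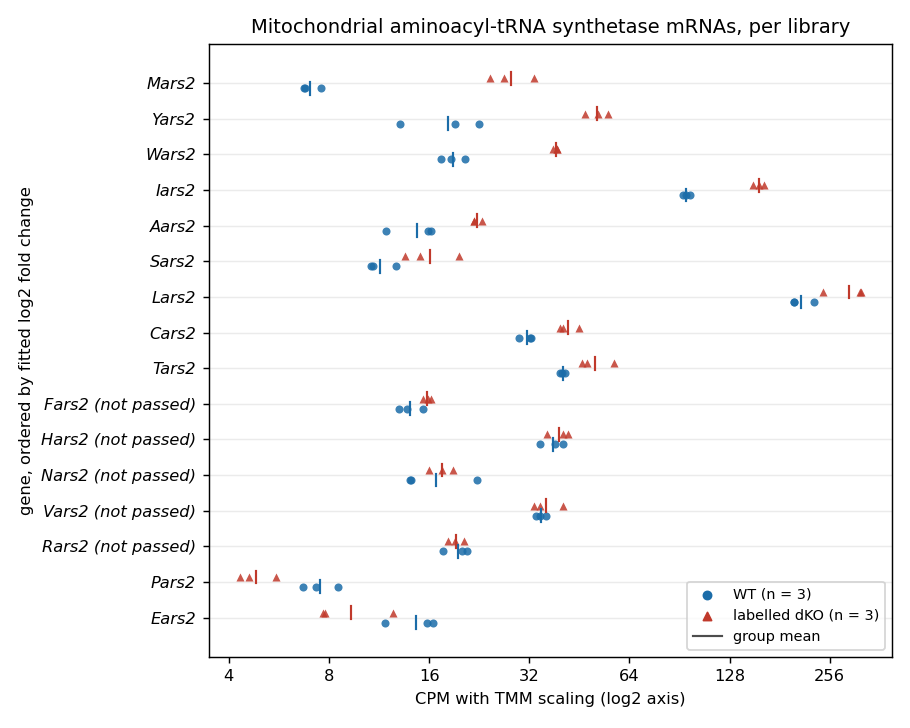
Level of each of the 16 mitochondrial synthetase mRNAs in every library, in CPM on a log2 axis, with genes ordered by fitted log2 fold change. Circles are WT libraries, triangles are libraries labelled dKO and short bars are group means; Mars2, Yars2, Wars2 and Iars2 are clearly apart, 5 genes did not pass, and Pars2 and Ears2 are lower in labelled dKO.

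Mars2, which charges the mitochondrial methionine tRNA (ENSMUSG00000046994, chromosome 1, 55237177 to 55248470), stood at 7.54, 6.77 and 6.75 CPM in WT 1, WT 2 and WT 3 and 24.4, 26.8 and 33.1 CPM in dKO 1, dKO 2 and dKO 3. All labelled dKO libraries were far above WT, at a low level, and the log2 fold change was 2.00 ± 0.15 (SE; adjusted p = 6.44e-06, edgeR). Yars2, the tyrosine enzyme (ENSMUSG00000022792, chromosome 16, 16302965 to 16309640), stood at 13.04, 22.5 and 19.1 CPM in WT 1, WT 2 and WT 3 and 55.2, 51.4 and 46.9 CPM in dKO 1, dKO 2 and dKO 3. The lowest labelled dKO library was above the highest WT library, and Yars2 rose by 1.49 ± 0.18 (SE; adjusted p = 0.000145, edgeR). Wars2, for tryptophan (ENSMUSG00000004233, chromosome 3, 99141068 to 99239186), stood at 20.5, 17.4 and 18.6 CPM in WT 1, WT 2 and WT 3 and 38.9, 38.8 and 37.7 CPM in dKO 1, dKO 2 and dKO 3. Its groups were tight and apart, a change of 1.03 ± 0.10 (SE; adjusted p = 3.47e-05, edgeR). Iars2, for isoleucine (ENSMUSG00000026618, chromosome 1, 185284726 to 185329396), stood at 97.2, 94.4 and 92.8 CPM in WT 1, WT 2 and WT 3 and 150.4, 156 and 163 CPM in dKO 1, dKO 2 and dKO 3. The groups did not overlap, and Iars2 rose by 0.72 ± 0.07 (SE; adjusted p = 2.26e-05, edgeR). Iars2 shares exonic positions with Rab3gap2 and 2010103J01Rik, which lie opposite it, and without strand such reads are not separable. These were the 4 mitochondrial genes that also passed a test against a 1.5-fold change, as 13 of the 20 cytosolic genes did; over all tested genes 13.9% passed it in that direction.

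Smaller rises were called in 5 other mitochondrial genes. Aars2, for alanine, stood at 16.2, 15.9 and 11.9 CPM in WT 1, WT 2 and WT 3 and 23.03, 21.9 and 21.8 CPM in dKO 1, dKO 2 and dKO 3. WT 3 was the lowest, all labelled dKO libraries were above WT, and the log2 fold change was 0.60 ± 0.14 (SE; adjusted p = 0.00601, edgeR). Sars2, for serine, stood at 10.7, 12.7 and 10.8 CPM in WT 1, WT 2 and WT 3 and 14.97, 13.6 and 19.7 CPM in dKO 1, dKO 2 and dKO 3. The gap between the groups was under 1 CPM, and the rise of 0.50 ± 0.17 (SE; adjusted p = 0.032, edgeR) was lost without WT 1, WT 3, dKO 1 or dKO 3 (edgeR adjusted p = 0.106, 0.0912, 0.0512 and 0.0996). Tars2, for threonine, stood at 39.7, 40.2 and 40.9 CPM in WT 1, WT 2 and WT 3 and 47.5, 46.1 and 57.4 CPM in dKO 1, dKO 2 and dKO 3. Library dKO 3 was well above the other 2, and the rise of 0.32 ± 0.10 (SE; adjusted p = 0.0236, edgeR) was lost without WT 1, WT 3 or dKO 3 (edgeR adjusted p = 0.0807, 0.0559 and 0.0542). Cars2, for cysteine, rose from 31.5 ± 1.46 to 41.8 ± 2.99 CPM, and Lars2, for leucine, from 209.8 ± 17.1 to 293 ± 42.1 CPM, with dKO 3 the lowest of the labelled dKO libraries for Lars2. Cars2 overlaps exons of Naxd on the other strand.

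The 2 mitochondrial genes that fell encode the enzymes for glutamate and proline, the pair that Eprs serves in the cytosol. Pars2, for proline (ENSMUSG00000043572, chromosome 4, 106651069 to 106655282), stood at 8.52, 6.70 and 7.29 CPM in WT 1, WT 2 and WT 3 and 4.32, 5.53 and 4.58 CPM in dKO 1, dKO 2 and dKO 3. The labelled dKO libraries were all below WT, at 165 to 225 counts, and the log2 fold change was -0.64 ± 0.20 (SE; adjusted p = 0.0209, edgeR). That call was lost without WT 1 or without dKO 1 (edgeR adjusted p = 0.0894 and 0.0735). Ears2, for glutamate (ENSMUSG00000030871, chromosome 7, 122037213 to 122067263), stood at 16.4, 11.8 and 15.7 CPM in WT 1, WT 2 and WT 3 and 7.80, 7.67 and 12.5 CPM in dKO 1, dKO 2 and dKO 3. The ranges overlapped, since dKO 3 was above WT 2, and the log2 fold change was -0.65 ± 0.22 (SE; adjusted p = 0.0331, edgeR). Without any 1 of WT 1, WT 3, dKO 1 and dKO 2 the call of Ears2 was lost (edgeR adjusted p = 0.111, 0.0935, 0.116 and 0.116). Without both WT 2 and dKO 3 the log2 fold change of Ears2 was -1.05 (edgeR adjusted p = 0.000121). Ears2 also overlaps exons of Ubfd1 on the other strand.

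The 5 mitochondrial genes that did not pass had fitted log2 fold changes between -0.02 and 0.18. Nars2, for asparagine, stood at 14.1, 22.2 and 14.1 CPM in WT 1, WT 2 and WT 3 and 15.96, 18.8 and 17.5 CPM in dKO 1, dKO 2 and dKO 3. WT 2 was the highest of the 6 libraries and the groups overlapped, with a log2 fold change of 0.06 ± 0.19 (SE; adjusted p = 0.823, edgeR). Fars2, for phenylalanine, was at 14.00 ± 1.17 CPM over the WT libraries and 15.8 ± 0.409 CPM over the labelled dKO libraries, and Hars2, for histidine, at 37.7 ± 3.12 CPM over the WT libraries and 39.4 ± 2.91 CPM over the labelled dKO libraries. Vars2, for valine, was at 34.7 ± 1.19 CPM over the WT libraries and 35.95 ± 3.91 CPM over the labelled dKO libraries, and Rars2, for arginine, at 19.5 ± 1.68 CPM over the WT libraries and 19.3 ± 1.11 CPM over the labelled dKO libraries. The 1 gene of these 5 without overlap between groups was Fars2 (edgeR adjusted p = 0.253).

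Per length, mitochondrial synthetase mRNAs were below most cytosolic ones. WT levels ran from 0.622 CPM per kb for Mars2 to 18.9 CPM per kb for Lars2, with a median of 3.90 CPM per kb, and in labelled dKO from 1.55 CPM per kb for Pars2 to 26.4 CPM per kb for Lars2, with a median of 6.12 CPM per kb. Lars2 stood apart from the rest of its set, with Iars2 next in WT at 10.7 CPM per kb. The summed level of the 16 genes was 591 ± 20.5 CPM in WT and 839.6 ± 20.02 CPM in labelled dKO, a ratio of 1.42 against 2.04 for the cytosolic sum.

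To compare the sets amino acid by amino acid, the ratio of each cytosolic gene to its mitochondrial partner was taken within each library, as the log2 of CPM plus 0.5. Such a ratio does not move with the scaling of a library, apart from that constant. The ratio was higher in labelled dKO for 13 of 16 pairs and lower for 3, with a median difference of 0.64. In 12 pairs the ratio was higher with no overlap between groups, in 1 pair it was lower with no overlap, and 3 pairs overlapped. Ratios of other gene pairs were not computed, so these counts have no background share. Of single tested genes, 65.6% were apart between groups in either direction. With 3 against 3 libraries the exact two-sided permutation test cannot go below p = 0.1, so no pair could pass, and the smallest value adjusted over 16 pairs was 0.123. Eprs enters 2 pairs, so those 2 are not independent.

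**Figure D3:**
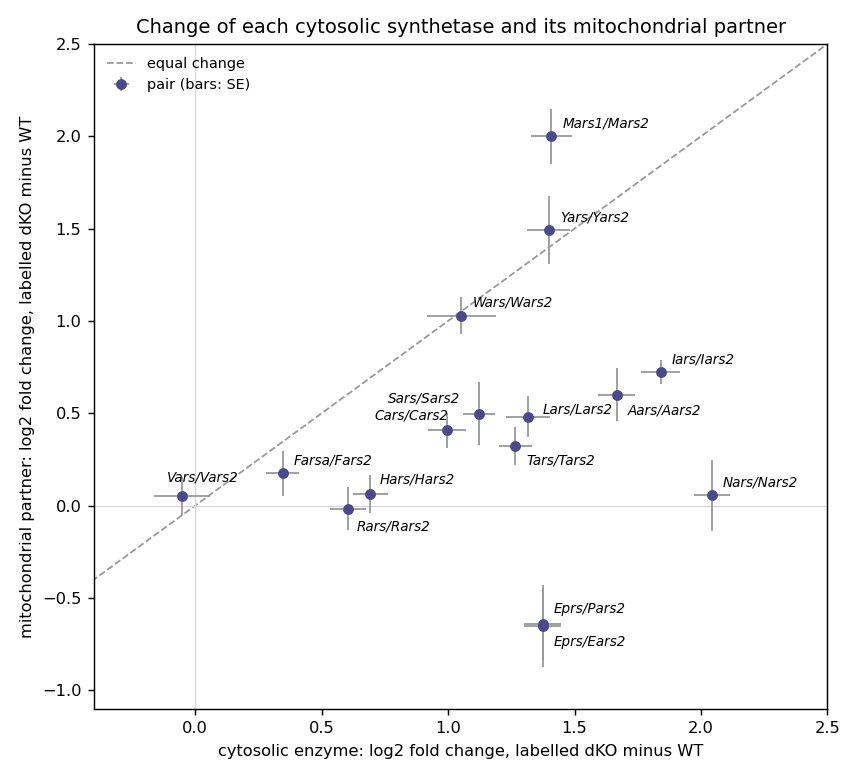
Fitted log2 fold change of each cytosolic synthetase (horizontal) against that of its mitochondrial partner (vertical), with SE bars and a dashed line of equal change. Most of the 16 pairs lie to the right of the line; Wars/Wars2, Yars/Yars2, Vars/Vars2 and Farsa/Fars2 lie near it and Mars1/Mars2 above it.

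The widest splits were those of Eprs and Nars. The log2 ratio of Eprs to Ears2 was 3.61, 4.02 and 3.70 in the WT libraries and 5.92, 5.97 and 5.47 in the labelled dKO libraries, a difference of 2.01. Against Pars2, the ratio of Eprs was 4.51, 4.79 and 4.76 in the WT libraries and 6.71, 6.41 and 6.82 in the labelled dKO libraries, a difference of 1.96. For these pairs the cytosolic gene rose and the mitochondrial gene was called lower. As given above, the calls of Ears2 and Pars2 were both lost without WT 1 or without dKO 1. The log2 ratio of Nars to Nars2 was 3.00, 2.24 and 3.00 in the WT libraries and 4.84, 4.64 and 4.62 in the labelled dKO libraries, a difference of 1.96. Nars rose and Nars2 did not pass. Both members rose, the cytosolic one more, in the pairs Iars/Iars2 (difference 1.12) and Aars/Aars2 (1.07), and the ratios of both were apart between groups (exact p = 0.1).

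In 3 pairs both partners rose and the ratio differed little or was lower. Mars1 to Mars2 was 2.74, 2.97 and 3.12 in the WT libraries and 2.70, 2.46 and 2.14 in the labelled dKO libraries, a difference of -0.51, the 1 pair whose ratio was lower without overlap (exact p = 0.1). The ratio of Wars to Wars2 was 1.41, 1.70 and 1.45 in the WT libraries and 1.40, 1.31 and 1.89 in the labelled dKO libraries, and that of Yars to Yars2 was 1.79, 1.09 and 1.36 in the WT libraries and 1.11, 1.23 and 1.57 in the labelled dKO libraries. Both of these overlapped between groups, with differences of 0.01 and -0.11 (exact permutation p = 1 and 0.7). The valine pair, in which neither gene passed, had a difference of -0.11 (exact permutation p = 0.4).

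Other genes of tRNA charging and translation were counted from lists by function, drawn up with earlier results of these data known. The counts stand against 28.6% called higher and 28.7% called lower over all tested genes. Scaffold genes of the multi-synthetase complex split: Aimp2 rose from 23.2 ± 0.536 to 59.7 ± 4.35 CPM and Eef1e1, the AIMP3 gene, from 21.6 ± 1.30 to 44.8 ± 3.04 CPM, while Aimp1, at 76.7 ± 3.63 CPM over the WT libraries and 78.9 ± 6.21 CPM over the labelled dKO libraries, did not (edgeR adjusted p = 0.698). Among 6 genes of tRNA maturation and nuclear export, 4 rose and 0 fell, also at an unadjusted p under 0.05, with a median of 0.33; Xpot, the tRNA exportin, rose from 113 ± 10.4 to 300.1 ± 3.89 CPM, or by 1.41 ± 0.08 (SE; adjusted p = 1.23e-06, edgeR) on the log2 scale, and Ssb, the La protein that binds new tRNA transcripts, rose by 0.36. Of 6 cytosolic elongation factors 5 rose, with a median of 0.38; without WT 1 the count was 3. The sixth, Eef2, which moves the ribosome along the mRNA, had a log2 fold change of -0.19 ± 0.07 (SE; adjusted p = 0.0535, edgeR) with ranges that did not overlap, and it was called lower under 6 of the 16 alternatives. Eif5a, which helps ribosomes through difficult peptide bonds, rose by 0.83 ± 0.07 (SE; adjusted p = 1.17e-05, edgeR) and Eef1a1, which delivers charged tRNA, by 0.49 ± 0.06 (SE; adjusted p = 0.000204, edgeR). Of 5 trans-editing and synthetase-like genes, 1 rose: Dtd1, which removes D-amino acids from tRNA, by 0.41 ± 0.12 (SE; adjusted p = 0.0159, edgeR), a call lost without WT 1, WT 3 or dKO 2 (edgeR adjusted p = 0.0702, 0.0583 and 0.0572). The count for this list was 0 without dKO 2 and 2 without WT 2. Tarsl2, a second threonyl-tRNA synthetase of the cytosol, was at 20.03, 15.4 and 24.7 CPM in the WT libraries and 22.97, 25.2 and 31.9 CPM in the labelled dKO libraries and missed the threshold (edgeR adjusted p = 0.0921).

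Of 6 selenocysteine genes, 2 were called higher and 2 lower, shares close to those of all tested genes, and 1 was called lower without WT 1, WT 3, dKO 1 or dKO 2. Sephs2, the selenophosphate synthetase, rose from 30.2 ± 7.07 to 82.8 ± 3.42 CPM, and its paralogue Sephs1 fell, from 98.6 ± 2.59 to 64.98 ± 0.469 CPM (by edgeR, adjusted p = 6.9e-05 and 7.68e-05). On the mitochondrial side, Gatc and Qrsl1, subunits of the amidotransferase that makes glutamine tRNA from glutamate-charged tRNA, rose by 0.61 and 0.55, while the third subunit gene Gatb and the formyltransferase gene Mtfmt did not pass (edgeR adjusted p = 0.751 and 0.0646). The call of Qrsl1 was lost without WT 2 and dKO 3 (edgeR adjusted p = 0.0515). Of 9 mitochondrial initiation, elongation and release factors, 5 rose and 1 fell, with a median of 0.38. The count called lower was 2 without dKO 1, by DESeq2, with upper-quartile normalization, with a stricter count filter and with counts divided by 4. It was 0 in the test against a 1.5-fold change. Gfm1, a mitochondrial elongation factor, rose by 0.88 ± 0.08 (SE; adjusted p = 2.86e-05, edgeR), and Mtif3, an initiation factor, by 0.69 ± 0.10 (SE; adjusted p = 0.000304, edgeR). Of 78 mitochondrial ribosomal protein genes, 44 rose and 4 fell, with a median of 0.30; Mrpl33 and Mrpl16 had the smallest adjusted p, with log2 fold changes of 1.74 and 1.35. Among the 13 mRNAs that mitochondrial ribosomes translate, 1 rose and 3 fell, with a median of -0.03; mt-Cytb changed by -0.37, mt-Co1 by -0.34 and mt-Co2, the one that rose, by 0.38. Without dKO 3, 2 of these mRNAs were called higher. The mitochondrial synthetase median of 0.36 thus stood near those of the other nuclear genes of mitochondrial translation, and the cytosolic synthetase median of 1.09 above that of the cytosolic elongation factors; these medians were not tested against each other.

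**Figure D4:**
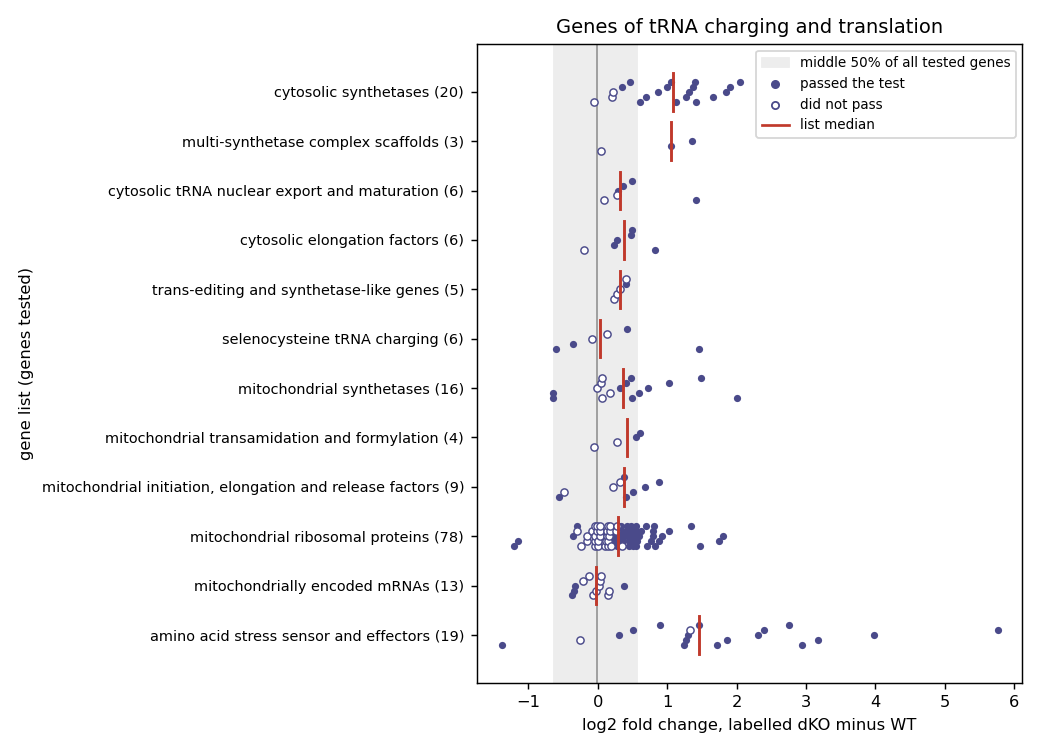
Fitted log2 fold changes of the genes in 12 lists of tRNA charging, translation and amino acid stress, with filled points for genes that passed the test, open points for those that did not, and a red bar at each list median. The grey band spans the middle 50% of all tested genes; the cytosolic synthetases, complex scaffolds and amino acid stress genes have medians above it, the other lists within it.

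The amino acid stress genes were also mostly higher in labelled dKO. Of 19 genes of this list, 16 rose and 1, Cebpb, fell (-1.38), against 28.6% higher and 28.7% lower over all tested genes. Slc7a11 and Nupr1 did not pass (2 genes were lower without dKO 3), and the median of the list was 1.46. Several of these genes are known ATF4 targets and had been seen to be higher in earlier work on these libraries, so their count is not an independent result. Whether their rise is linked to that of the cytosolic synthetases was not tested. Atf4 itself stood at 163, 160.4 and 165 CPM in WT 1, WT 2 and WT 3 and 379.9, 390.4 and 408 CPM in dKO 1, dKO 2 and dKO 3. The groups were tight and apart, and Atf4 rose by 1.27 ± 0.06 (SE; adjusted p = 6.32e-07, edgeR), while ATF4 protein was not measured. Asns, which makes asparagine, the amino acid that Nars uses, stood at 21.9, 14.9 and 22.9 CPM in WT 1, WT 2 and WT 3 and 303, 292 and 343 CPM in dKO 1, dKO 2 and dKO 3. It rose by 3.97 ± 0.17 (SE; adjusted p = 3.59e-07, edgeR), with WT 2 the lowest library. Eif4ebp1, an inhibitor of cap-dependent translation, rose by 2.39 and Phgdh, the first enzyme of serine synthesis, by 2.94 (edgeR adjusted p = 4.74e-08 and 4.74e-08). Eif2ak4, the gene of the sensor of uncharged tRNA, rose by 0.30 ± 0.10 (SE; adjusted p = 0.0329, edgeR), a call lost without WT 2, WT 3, dKO 1 or dKO 2 (edgeR adjusted p = 0.071, 0.0504, 0.0711 and 0.112). Charging of tRNA, tRNA levels and synthetase protein were not measured in these libraries.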

How the data were processed

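The authors deposited estimated counts per gene as whole numbers without normalization, in a series table and in 1 file per library, which were equal in all 6 libraries. HISAT2 2.2.1 and StringTie 2.2.1 on GRCm38 (mm10) are named in the submitters' processing notes. How reads were summed into genes, with which annotation and whether by strand, is not given in the sources used here. In the authors' files the estimated counts pile up at 4 (678 to 775 genes per library, against 273 to 367 genes at 5), so 1 read pair may add up to 4 counts. No row without a gene was present, and no column of another sample.

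Symbols and positions came from GENCODE M21 (48144 of 48820 identifiers matched). Differences were tested over all genes with edgeR 4.0.16 in R 4.3.3, using TMM normalization, filterByExpr by group (15807 genes tested), robust quasi-likelihood dispersions, genotype as the only term and Benjamini-Hochberg adjustment. The SE is approximate, taken as the size of the fitted log2 change over the root of its F value. The test was also run on simulated counts in which far fewer genes changed than were called here. That run does not check the test at the share of changed genes seen here. Samples were grouped by their titles. Replicates differed by more than sampling noise in every pair. The members and lists were chosen with earlier results of these data known. Alternatives were DESeq2 1.42.0, other normalizations, filters and thresholds, a replicate block, counts divided by 4 and leaving out libraries. Per-library values are given for the 8 cytosolic and 4 mitochondrial members with the smallest adjusted p, called members that moved against their set, partners of these, and members that did not pass in the cytosolic set (the last chosen after their values were seen), and other lists are named by their 2 smallest adjusted p, besides Atf4 and Asns. Aimp1, Ddit3, Eif2ak4, Gatb, Mtfmt, Cebpb, Slc7a11, Nupr1, Eef2, mt-Co2 and the marker genes were named after their values were seen. A planned comparison of protein sequences was not made, as no protein table was used here.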

Additional observations from a re-analysis of the deposited data

How the results depend on the processing

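Calls and fold changes were computed again under 16 alternatives, and partner ratios under the 7 that leave out libraries; promoter shares were not. All 17 cytosolic rises kept their direction and call under the 15 alternatives other than the 1.5-fold test, as did 7 of the 9 mitochondrial rises, all but Sars2 and Tars2. Of 576 single-gene values for the 36 synthetases, 540 stayed on their side of the threshold with the same call, 29 lost a call, 7 gained one and 0 turned a called direction. A test against a 1.5-fold change, stricter by construction, called 4556 genes in all, 13 cytosolic and 4 mitochondrial genes higher and 0 mitochondrial genes lower. At an adjusted p under 0.01, 0 mitochondrial genes were called lower. Without WT 2 and dKO 3, 10139 genes were called in all, and 1 cytosolic gene, Vars, was called lower; the cause was not tested. With 1 library left out, 8041 to 9120 genes were called in all, 0 to 2 mitochondrial genes were called lower, and the mitochondrial median log2 fold change ran from 0.27 to 0.40; the cause was not tested. Of 112 group differences in partner ratio, 111 moved by less than the spread between libraries. The exception was Eprs to Ears2, whose log2 ratio differed by 2.30 (labelled dKO minus WT) without WT 2 and dKO 3. In the related lists, 43 of 416 counts moved by more than 1.5 times. Replicate numbers did not pair the libraries: same-numbered libraries had correlations of deviations of -0.10, 0.11 and 0.16, and 3 of 6 libraries correlated best with their own number. With the replicate block 8658 genes in all, 18 cytosolic (Kars added, adjusted p = 0.0449) and 8 mitochondrial genes were called higher (Sars2 lost, adjusted p = 0.0555), and 2 mitochondrial genes lower. The lowest counts were those of Pars2, at 165 to 420 per library; with counts divided by 4 the mitochondrial calls stayed at 9 higher and 2 lower.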
